A study of Mus musculus with 58 samples.

Results

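The genes described here are 28 members of the cholesterol synthesis pathway and of the SREBP system that controls it. They were chosen by symbol for their known roles, though with earlier results of these data known. All 28 were found in each of the 3 deposited count tables, among 24940 genes in the age series, 10277 in the wild-type antisense oligonucleotide (ASO) libraries and 10589 in the SgshKO ASO libraries. All 28 passed the filter on low counts of the age series, and all genes of the ASO tables were tested. The study measured polyA RNA from microglia, the resident macrophages of the brain, sorted from mouse forebrain as DAPI-negative CD11b+, CD45low and CX3CR1+ cells. It compared wild-type mice with SgshKO mice, which lack Sgsh, a lysosomal enzyme that removes sulfate groups from heparan sulfate and whose loss causes Sanfilippo syndrome type A. It also asked what happens in these cells when transcription factors of the MiT/TFE family (Mitf, Tfeb, Tfe3), which act on lysosomal genes, are lowered by ASOs.

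All mice were C57BL/6. The age series held uninjected wild-type (WT) mice at 3 weeks (3 libraries), 4 months (2) and 8 months (4), and SgshKO mice at 3 weeks (4), 4 months (2) and 8 months (7). In the ASO experiments, each animal received a single bolus into the cerebral ventricles and microglia were taken 14 days later. The 5 WT arms were PBS, an ASO labelled ntc that serves as the control here, and single ASOs to Mitf, to Tfeb and to Tfe3, with 4 libraries each, numbered grp 1 to 4. SgshKO mice, with the knockout shared by both arms, received ntc or ASOs against both Mitf and Tfe3 (8 libraries each, in grp 1 and grp 2). The labels give no age for the ASO mice, no sex, no description of the Sgsh allele and no statement that each library came from a separate animal, so the p-values below measure the spread between these libraries.

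Cholesterol is built from acetyl-CoA through mevalonate, the farnesyl and geranylgeranyl diphosphates, squalene and lanosterol. The precursors SREBP-1 (gene Srebf1) and SREBP-2 (gene Srebf2) sit in the endoplasmic reticulum bound to the escort protein Scap, and when membrane sterol is low Scap carries them to the Golgi, where the proteases encoded by Mbtps1 and Mbtps2 release the active factor, which binds sterol regulatory elements in the promoters of synthesis genes. When sterol is plentiful, the Insig proteins hold Scap in the endoplasmic reticulum. In the brain cholesterol is made locally, and microglia take up lipid-rich debris and pass sterol on to other cells.

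The promoters of the members bear on this control. Those of 4 members are shown because they carry the sterol regulatory element or the E-box given below, outside the deposited transcript. Of the 28 members, 24 have a promoter in the RefSeq table for GRCm38.p6, and the 250 bases before each start were searched on both strands. The sterol regulatory element, searched only as the pattern TCACNCCAC, was found in 1 of the 24 (Hmgcs1) and in 1.22% of 27025 promoters. The E-box CACGTG, a core bound by basic helix-loop-helix factors including the MiT/TFE and SREBP families, was found in 5 of the 24 (Dhcr7, Hsd17b7, Insig1, Sc5d and Scap) and in 6.86% of all promoters. CCAAT was found in 20 of the 24 against 37.5% of all promoters, and the GC box GGGCGG in 21 against 35.4%. None of these motif matches overlapped each other in the members. The windows below run 5′ to 3′ on the strand of the gene with the motif in capitals, and lie at chr13:119690184-119690252 (plus strand, motif at position -137 from the RefSeq start), chr5:28071281-28071346 (plus, -101), chr1:169969313-169969378 (minus, -143) and chr9:42264363-42264428 (minus, -98), each upstream of the gene.
Hmgcs1: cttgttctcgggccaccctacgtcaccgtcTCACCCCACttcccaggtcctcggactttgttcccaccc
Insig1: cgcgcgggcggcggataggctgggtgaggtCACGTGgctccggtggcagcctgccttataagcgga
Hsd17b7: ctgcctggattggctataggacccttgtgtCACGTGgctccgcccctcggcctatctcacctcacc
Sc5d: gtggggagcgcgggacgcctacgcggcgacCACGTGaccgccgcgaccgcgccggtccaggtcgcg
A match is only a match of letters. The Dhcr7 and Scap matches are not shown because the RefSeq starts lie 232 and 68 bases past the start of the transcript in the deposited table, which places both motifs inside it.

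Library totals ran from 8191508 to 27106584 counts in the age series, from 14372015 to 30378870 in the WT ASO set and from 12517838 to 30431437 in the SgshKO ASO set. Levels below are CPM, which are counts scaled to library size with a factor per library (TMM), unless TPM, which are also scaled to transcript length, are named. The 10 microglia markers summed to 30332 to 55826 CPM in the age series, while the 10 neuron markers summed to at most 16.1 CPM. Sgsh transcript was present in both genotypes (20.3 to 59.2 CPM in WT, 14.9 to 34.7 in SgshKO) and so does not check the genotype. The ASO targets do check the treatments: in WT mice Mitf was at 3.61%, Tfeb at 10.6% and Tfe3 at 19.2% of the ntc mean under its own ASO, and in SgshKO mice the pair left Mitf at 21.1% and Tfe3 at 47.2%. The 10 neutrophil and monocyte markers summed to 413 to 5473 CPM in the 8-month SgshKO libraries and to 11.2 to 13.5 CPM in the 8-month WT libraries. The 4-month SgshKO libraries were at 2809 and 13889 CPM for the same markers. In these bulk libraries, fewer cells of a type and less RNA per cell cannot be told apart. All 3-week libraries and 3 of the 7 SgshKO libraries at 8 months carried Xist RNA, and the 4 WT libraries at 8 months carried Ddx3y RNA instead.

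In WT microglia at 8 months, 2 genes of the SREBP machinery had the highest levels of the 28 on the deposited TPM scale, which corrects for transcript length. Mbtps1, the site-1 protease, was at 54.8 ± 3.75 TPM (SD, n = 4), followed by Scap at 47.3 ± 0.65 and Ebp, a sterol isomerase of the late pathway, at 33.1 ± 4.49. Mbtps1 and Scap, and Scap and Ebp, were further apart than the sum of their SDs. Srebf1 (25.9 ± 2.04 TPM) was above Srebf2 (17.9 ± 1.74 TPM). In SgshKO microglia of the same age the order of these factors was the other way, with Srebf2 at 31.3 ± 4.56 TPM (n = 7) and Srebf1 at 27.7 ± 1.35, although their SDs overlapped.

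The synthesis enzymes ranged widely. Fdft1 (squalene synthase) was at 28.8 ± 1.31 TPM in WT and 57.4 ± 6.58 in SgshKO, where it ranked highest of the 28, although its last exon overlaps Ctsb on the other strand and the part of Ctsb reads in its value was not tested. Msmo1, a sterol C4 methyl oxidase, was at 21.6 ± 4.48 and 28.9 ± 3.37 TPM, and Dhcr7, the last reductase of the pathway, was at 16.9 ± 0.48 and 28.1 ± 3.36. Hmgcs1 (12.4 ± 1.78 TPM in WT) and Sc5d (11.0 ± 2.35 TPM) were intermediate, and Sqle (1.72 ± 0.65), Hsd17b7 (1.61 ± 0.47) and the sterol carrier Stard4 (0.93 ± 0.46) were among the lowest. Idi1, which isomerises isopentenyl diphosphate, was lowest in both genotypes, at 0 to 1.32 CPM in the age libraries, and no fold is given for it there. In the ASO libraries Idi1 was at 3.95 CPM or more in every WT library. Those sets were scaled separately and list genes by Ensembl rather than RefSeq entries, and the reason for the gap was not tested.

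**Figure D1:**
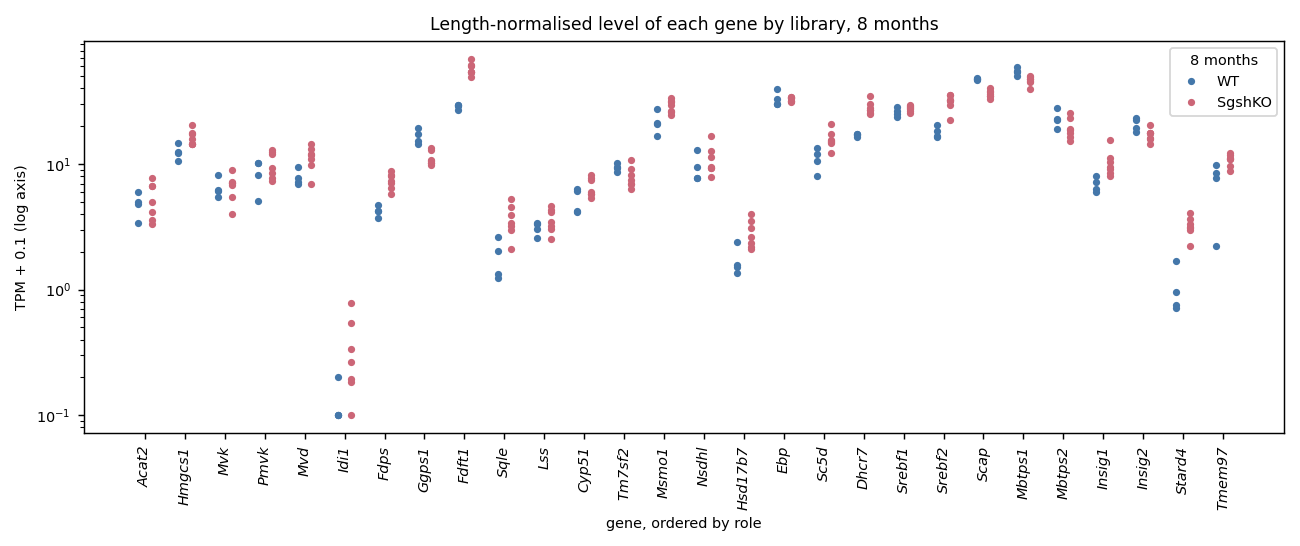
Levels of the 28 genes at 8 months in TPM plus 0.1 on a log axis, with WT libraries (n = 4) and SgshKO libraries (n = 7) as points. Mbtps1 and Scap lead in WT, Fdft1 (which shares 774 bases with Ctsb) leads in SgshKO, and Idi1 is lowest in both.

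At 8 months the pathway was shifted upwards in SgshKO microglia. Of the 28 members, 15 were higher and 2 lower than in WT at an adjusted p under 0.05 (edgeR quasi-likelihood test, Benjamini-Hochberg adjustment over 14309 genes). Over all genes tested, 21.6% were called higher and 18.9% lower. The median log2 fold change of the members was 0.52 against 0.02 for all genes, and 22 of the 28 were above 0. For 13 members the WT and SgshKO libraries did not overlap, which held for 25.2% of all genes. On the deposited TPM values tested with limma, 12 members were higher and 4 lower, with Mbtps1 and Insig2 joining the lower ones, and all genes then had a median log2 fold change of -0.11 with a pseudocount of 1 (2241 higher and 4120 lower of 13406).

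**Figure D2:**
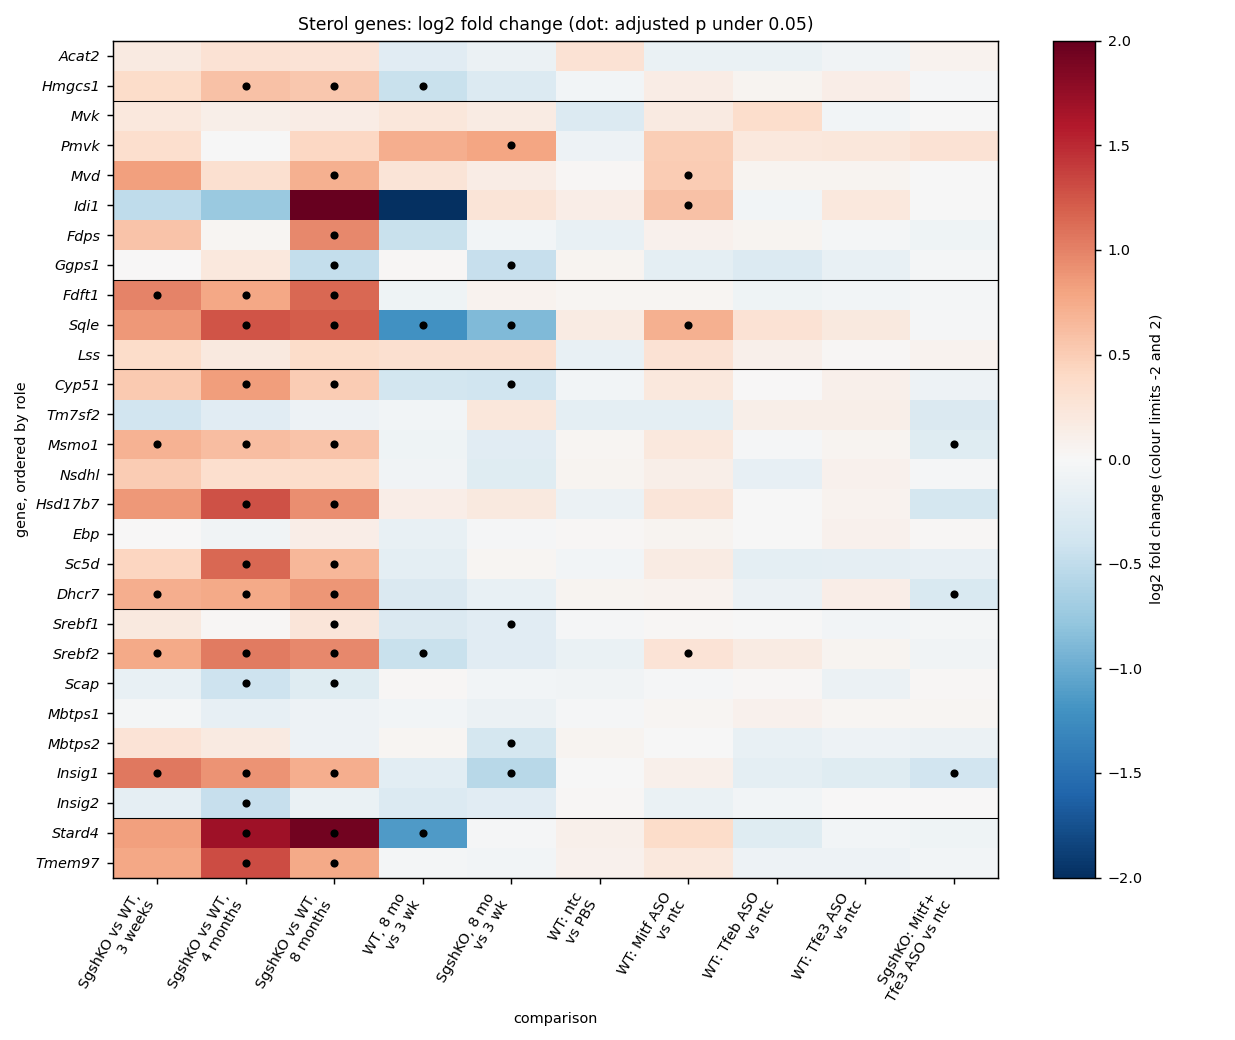
Log2 fold change of each of the 28 genes (grouped by role) in 10 comparisons, with colour from -2 to 2 (Idi1, with few counts in the age series, passes these limits) and a dot where the adjusted p is under 0.05 (edgeR). The SgshKO against WT columns hold 5, 14 and 17 dots at 3 weeks, 4 months and 8 months, and the ASO columns hold at most 4.

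Among the regulators, Srebf2, the SREBP that mainly drives sterol synthesis, was 1.95-fold higher (chr15:82147269-82204960, plus strand, mm10). Its WT libraries at 8 months were at 48.2, 49.0, 52.8 and 57.5 CPM, and the 7 SgshKO libraries ranged from 67.7 to 115 CPM with a median of 103. Every SgshKO library was above every WT library, and the log2 fold change was 0.96 ± 0.11 (SE, adjusted p = 1.18e-07, edgeR). Srebf1, which mainly drives fatty acid synthesis, was at 64.2, 74.2, 68.1 and 75.4 CPM in WT and at 77.2 to 87.9 (median 84.1) in SgshKO. The groups did not overlap, yet the change was small, at 0.25 ± 0.08 (adjusted p = 0.0149, edgeR), and it was not called on the TPM values (0.10, adjusted p = 0.347, limma).

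Insig1, the retention protein that is itself an SREBP target, was at 12.1, 10.04, 13.4 and 10.3 CPM in WT and at 14.7 to 27.3 (median 18.1) in SgshKO. All SgshKO libraries were higher, with a log2 fold change of 0.72 ± 0.17 (adjusted p = 0.0016, edgeR). Its relative Insig2 was at 36.4, 30.4, 34.8 and 27.3 CPM in WT and at 25.6 to 33.7 (median 30.2) in SgshKO, so the groups overlapped and the change of -0.13 ± 0.10 did not pass (adjusted p = 0.3, edgeR).

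Scap, the sterol-sensing escort, moved the other way. It was at 125, 126, 127 and 120 CPM in WT and at 99.5 to 118 (median 102) in SgshKO, with no overlap, and it fell by 0.24 on the log2 scale (SE 0.06, adjusted p = 0.00484, edgeR). The proteases were not called: Mbtps1 was at 148 ± 12 CPM in WT and 138 ± 7.2 in SgshKO, and Mbtps2 at 69.9 ± 10 and 65.0 ± 11 CPM (SD, n = 4 and 7).

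In the arm from acetyl-CoA to the farnesyl and geranylgeranyl diphosphates, 3 of 8 enzymes rose and 1 fell. Over all genes 21.6% were called higher and 18.9% lower, and nothing particular to this arm is read from its count. Hmgcs1, which makes HMG-CoA (chr13:119690351-119708260, plus strand), was at 33.2, 27.7, 27.8 and 22.8 CPM in WT and at 35.6 to 49.3 (median 39.7) in SgshKO. No SgshKO library reached down to WT, and the log2 fold change was 0.55 ± 0.11 (adjusted p = 0.000254, edgeR). Among the 24 member promoters searched, its promoter was the only 1 with a match to TCACNCCAC. A link between this match and the change was not tested.

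Fdps, which makes farnesyl diphosphate, was at 3.26, 3.69, 2.93 and 3.18 CPM in WT and at 4.84 to 7.59 (median 6.35) in SgshKO. The groups did not overlap, and the log2 fold change was 0.96 ± 0.19 (adjusted p = 0.000306, edgeR). Mvd, mevalonate diphosphate decarboxylase, rose by 0.71 ± 0.22 (adjusted p = 0.0104, edgeR), from 8.70 ± 1.4 to 14.1 ± 3.0 CPM, with overlapping libraries. Ggps1, which draws farnesyl diphosphate off towards geranylgeranyl diphosphate and protein prenylation, was at 65.9, 52.3, 48.9 and 58.5 CPM in WT and at 36.9 to 46.4 (median 39.2) in SgshKO. Here all SgshKO libraries were lower, and the gene fell by 0.47 on the log2 scale (SE 0.10, adjusted p = 0.000498, edgeR). Acat2, Mvk, Pmvk and Idi1 were not called.

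Of the enzymes that turn farnesyl diphosphate into lanosterol, Fdft1 and Sqle rose. Fdft1 (chr14:63145151-63179578, minus strand) was at 51.0, 56.5, 56.1 and 53.3 CPM in WT and at 104 to 137 (median 114) in SgshKO, a log2 fold change of 1.14 ± 0.07 (adjusted p = 8.17e-12, edgeR) with no overlap. Its last exon overlaps the end of Ctsb (cathepsin B) on the other strand by 774 bases, and the strand setting of the counting is not given in the sources used here. Ctsb itself was higher in SgshKO, by 1.91 ± 0.07 at 8 months, and Fdft1 amounted to 1.29 to 2.43 counts per 100 Ctsb counts (means of the 6 age groups). In the ASO sets the means of the 7 groups were 0.157 to 0.350 per 100. Scaling of the libraries does not enter this ratio, and the reason for the gap between the sets was not tested. The part of Ctsb reads in the Fdft1 value was not tested, and without Fdft1 the count of members at 8 months was 14 higher and 2 lower. Exons of 11 members overlap another gene, 8 on the opposite strand and 4 on the same, with Srebf1 on both. Besides Fdft1 and Srebf1 they are Hmgcs1, Idi1, Fdps, Ggps1, Lss, Cyp51, Tm7sf2, Scap and Mbtps2. The part of such reads in their values was not tested either.

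Sqle, squalene epoxidase and a rate-controlling step, was at 2.01, 3.44, 2.17 and 4.33 CPM in WT and at 4.07 to 10.01 (median 6.31) in SgshKO. A single SgshKO library fell within the WT range, and the log2 fold change was 1.21 ± 0.26 (adjusted p = 0.000499, edgeR). Lss, lanosterol synthase, was not called, at 12.1 ± 1.4 CPM in WT and 15.6 ± 3.3 in SgshKO.

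From lanosterol to cholesterol, 5 of 8 enzymes rose and none fell, against 21.6% of all genes called higher and 18.9% lower. Msmo1 was at 24.8, 24.3, 19.4 and 31.3 CPM in WT and at 31.7 to 41.0 (median 39.0) in SgshKO. The groups were separated only narrowly, with a log2 fold change of 0.57 ± 0.12 (adjusted p = 0.000408, edgeR). Dhcr7 (chr7:143823167-143848410, plus strand) was at 29.3, 30.8, 31.1 and 30.1 CPM in WT and at 49.9 to 65.7 (median 55.7) in SgshKO. These groups lay far apart, and the log2 fold change was 0.88 ± 0.09 (adjusted p = 2.18e-08, edgeR).

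Hsd17b7, the 3-keto-sterol reductase, rose by 0.93 ± 0.24 (adjusted p = 0.00261, edgeR), from 4.67 ± 1.3 to 8.84 ± 2.2 CPM. Sc5d, the C5 desaturase, rose by 0.66 ± 0.15 (adjusted p = 0.000945, edgeR), from 15.7 ± 3.5 to 25.0 ± 4.0 CPM. Cyp51, lanosterol demethylase, rose by 0.50 ± 0.15 (adjusted p = 0.00887, edgeR). Ebp, Nsdhl and Tm7sf2 were not called, with log2 fold changes of 0.14, 0.35 and -0.11.

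Both sterol carriers rose, against 21.6% of all genes called higher. Stard4, a soluble protein that moves cholesterol between membranes, was at 2.08, 2.96, 2.22 and 5.31 CPM in WT and at 8.31 to 14.9 (median 11.5) in SgshKO. The groups did not overlap, and at 1.92 ± 0.25 (adjusted p = 7.48e-07, edgeR) its log2 fold change was the largest among the called members. Tmem97, a sterol-binding membrane protein, rose by 0.76 ± 0.27 (adjusted p = 0.0239, edgeR), from 5.90 ± 2.8 to 10.04 ± 1.09 CPM.

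Several marker lists moved with genotype at 8 months. Beside the neutrophil and monocyte markers, the 10 proliferation genes summed to 56.3 to 69.1 CPM in WT and 120 to 231 in SgshKO. The 7 border macrophage markers were at 15.9 to 32.1 against 61.3 to 108 CPM, the 10 microglia markers at 41352 to 49372 against 32674 to 36310, and the 10 clock genes at 939 to 1036 against 422 to 567. Their part in the result was not tested. Without the 2 SgshKO libraries highest in neutrophil and monocyte markers, 14 members were higher and 2 lower. The SgshKO libraries that remained still summed to 413 to 779 CPM for these markers, against 11.2 to 13.5 in WT. This run therefore does not separate the markers from genotype. Without the 3 SgshKO libraries that carried Xist RNA, the count was 13 and 2. Both alternatives were chosen after the data were seen.

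The younger ages gave the same direction for the genes called there. At 3 weeks, 5 members were higher and none lower, against 5.31% of all genes higher and 3.72% lower. The median of the members was 0.40 (all genes -0.02), and the groups of 18 members did not overlap, against 22.5% of all genes. DESeq2 called 10 members at this age, but the shares of all genes above are from edgeR and none is given here for DESeq2. The 5 were Fdft1 (0.99 ± 0.09, adjusted p = 3.32e-08), Insig1 (1.05 ± 0.21, adjusted p = 0.00114), Srebf2 (0.75 ± 0.13, adjusted p = 0.000258), Dhcr7 (0.73 ± 0.11, adjusted p = 3.69e-05) and Msmo1 (0.70 ± 0.14, adjusted p = 0.00157), all by edgeR. Ctsb, which overlaps Fdft1, was itself higher in SgshKO at 3 weeks (1.45 ± 0.08) and at 4 months (1.59 ± 0.10). The part of Ctsb reads in the Fdft1 value was not tested at these ages either.

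Per library at 3 weeks, Srebf2 was at 64.5, 70.4 and 75.7 CPM in WT and at 114, 117, 131 and 112 in SgshKO. Insig1 was at 11.3, 12.8 and 15.97 CPM in WT and at 38.2, 21.5, 27.5 and 23.8 in SgshKO. In both genes every SgshKO library was higher at this age too. By contrast Scap was at 108, 127 and 132 CPM in WT and at 108, 112, 109 and 113 in SgshKO, with overlapping groups and no call (-0.15 ± 0.08, adjusted p = 0.316, edgeR).

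At 4 months, with 2 libraries a group, 12 members were higher and 2 lower, against 10.3% and 9.26% of all genes. The median was 0.30 (all genes 0.02), and 16 members had groups that did not overlap, against 58.1% of all genes. Stard4 (1.69 ± 0.38), Tmem97 (1.31 ± 0.43), Hsd17b7 (1.27 ± 0.38), Sqle (1.26 ± 0.40) and Sc5d (1.14 ± 0.25) had the largest log2 fold changes. The other 7 higher members were Srebf2 (1.03), Insig1 (0.89), Cyp51 (0.83), Fdft1 (0.77), Dhcr7 (0.76), Msmo1 (0.61) and Hmgcs1 (0.58). Scap (-0.41) and Insig2 (-0.46) were lower.

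Srebf2 at 4 months was at 57.1 and 56.1 CPM in WT and at 103 and 128 in SgshKO. Insig2 was at 42.7 and 36.6 CPM in WT and at 26.4 and 30.9 in SgshKO. Both genes had separated groups in opposite directions. The count at this age rested on single libraries: leaving out WT replicate 1 gave 8 calls, WT replicate 2 gave 5, and SgshKO replicate 2 gave 7. Neither 4-month SgshKO library was free of the neutrophil and monocyte transcripts given above, and their part in the result was not tested.

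Across ages, 5 members were called higher at all 3 (Dhcr7, Fdft1, Insig1, Msmo1 and Srebf2), against 3.43% of all genes, and 12 at both 4 and 8 months, against 9.07% of all genes. Both counts include Fdft1, with the Ctsb overlap given above. The 3 called higher at 8 months and not at 4 months were Fdps, Mvd and Srebf1, while Ggps1 was called lower at 8 months and not called at 4 months (adjusted p = 0.426, edgeR). Another 10 were called at no age: Acat2, Mvk, Pmvk, Idi1, Lss, Tm7sf2, Nsdhl, Ebp, Mbtps1 and Mbtps2. These counts do not show a change of the genotype difference with age, which was tested directly.

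That test called 0 of the 28 members between 8 months and 3 weeks (edgeR, against 9.25% of all genes), with 2 at an unadjusted p under 0.05 (22.3% of all genes) and 2 by DESeq2. They were Stard4 (interaction 1.10 ± 0.36, adjusted p = 0.0528) and Ggps1 (-0.48 ± 0.16, adjusted p = 0.057). Between 4 months and 3 weeks edgeR called 0 (2.52% of all genes), with 1 at an unadjusted p under 0.05 (16.2%) and 0 by DESeq2. Between 8 and 4 months it called 0 (0.391% of all genes), with 3 at an unadjusted p under 0.05 (11.5%) and 0 by DESeq2. For Srebf2 the 95% interval of the 8-month minus 3-week difference ran from -0.12 to 0.53 on the log2 scale. All 3-week libraries carried Xist RNA. At 8 months the 4 WT libraries carried Ddx3y RNA, while 3 SgshKO libraries carried Xist and 4 Ddx3y. Age and the sex-linked transcripts are therefore not separated in this difference.

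Ggps1, with the second smallest adjusted p of that first test, shows the pattern by library. At 3 weeks it was at 56.3, 48.6 and 61.5 CPM in WT and at 64.3, 54.2, 47.1 and 57.6 in SgshKO, which overlapped fully. At 4 months it was at 42.9 and 45.6 CPM in WT and 56.1 and 46.3 in SgshKO. Only at 8 months, in the values given above, were all SgshKO libraries lower, and the interaction did not pass the threshold.

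**Figure D3:**
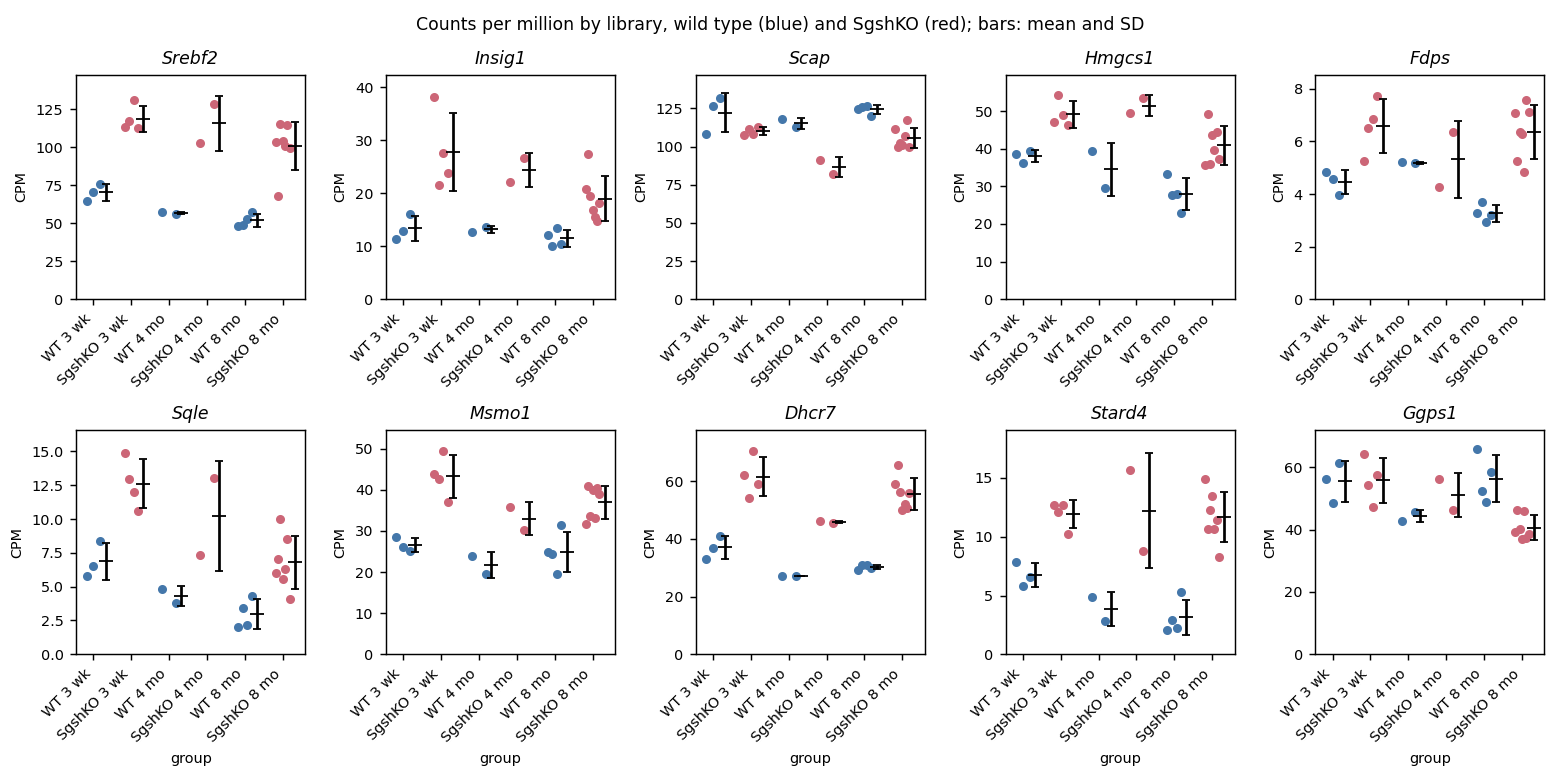
CPM per library for 10 of the genes at 3 weeks, 4 months and 8 months in WT and SgshKO, with points for libraries and bars for mean and SD. Srebf2, Insig1 and Dhcr7 are higher in every SgshKO library than in every WT library of the same age, and Scap and Ggps1 are lower in SgshKO at 8 months.

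Within WT, 4 members were lower at 8 months than at 3 weeks and none higher, against 4.63% and 3.02% of all genes. They were Sqle (-1.22 ± 0.30, adjusted p = 0.0105), Stard4 (-1.13 ± 0.28, adjusted p = 0.0124), Hmgcs1 (-0.44 ± 0.13, adjusted p = 0.034) and Srebf2 (-0.44 ± 0.13, adjusted p = 0.0349), by edgeR. Stard4 was at 7.86, 5.84 and 6.53 CPM at 3 weeks and at 2.08, 2.96, 2.22 and 5.31 CPM at 8 months, with no overlap. Leaving out WT 3-week replicate 1, 2 or 3 left 2, 2 and 1 members, and leaving out WT 8-month replicate 2 or 3 left 2. All WT libraries at 3 weeks carried Xist RNA and all at 8 months Ddx3y RNA, so age and the sex-linked transcripts cannot be told apart, and 0 members were called with Ddx3y minus Xist as a covariate.

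Within SgshKO, 1 member was higher at 8 months than at 3 weeks and 6 lower, against 15.5% and 15.1% of all genes. Pmvk, phosphomevalonate kinase, rose by 0.79 ± 0.24 (adjusted p = 0.0137, edgeR). Sqle (-0.88), Insig1 (-0.55), Ggps1 (-0.46), Cyp51 (-0.40), Mbtps2 (-0.35) and Srebf1 (-0.23) were lower. The count fell from 7 to 4 without SgshKO 3-week replicate 1. The 10 neutrophil and monocyte markers summed to 7.65 to 34.0 CPM in the 3-week SgshKO libraries, against the 413 to 5473 CPM at 8 months given above, and their part in the result was not tested. All 4 libraries at 3 weeks carried Xist RNA, as did 3 of the 7 at 8 months, and with Ddx3y minus Xist as a covariate 1 member was higher and 4 lower.

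In WT mice the control ASO gave no call against PBS. Between ntc and PBS edgeR called 0 members (0% of all genes), with Acat2, 1 member, at an unadjusted p under 0.05 (4.04% of all genes) and 0 by DESeq2, and the median was 0.01. The Mitf ASO moved 4 members up relative to ntc and none down, against 5.77% and 5.21% of all genes. The median of the members was 0.13 (all genes -0.01), 22 were above 0, and the libraries of 4 did not overlap, against 7.67% of all genes.

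Idi1 was at 6.05, 5.84, 6.16 and 6.34 CPM under ntc and at 9.35, 8.93, 9.43 and 8.98 under the Mitf ASO. All 4 Mitf ASO libraries stood above every other WT ASO library (PBS 3.95 to 6.92, Tfeb 5.52 to 6.11, Tfe3 6.54 to 8.05 CPM), and the log2 fold change over ntc was 0.58 ± 0.13 (adjusted p = 0.00769, edgeR). Srebf2 was at 45.5, 52.0, 58.3 and 58.6 CPM under ntc and at 64.6, 58.6, 64.6 and 71.1 under the Mitf ASO. These ranges touched without crossing, and the log2 fold change was 0.27 ± 0.08 (adjusted p = 0.0305, edgeR), while under PBS the gene was at 49.7 to 64.1 CPM.

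Mvd was at 3.98, 4.89, 6.10 and 3.74 CPM under ntc and at 6.15, 7.76, 6.08 and 6.33 under the Mitf ASO (0.51 ± 0.15, adjusted p = 0.0395, edgeR). Sqle was at 2.51, 1.85, 2.33 and 1.77 CPM under ntc and at 4.04, 2.84, 4.69 and 2.40 under the Mitf ASO (0.71 ± 0.19, adjusted p = 0.0235, edgeR). Both genes had 1 Mitf ASO library within the ntc range. The fit held the library number as a block, and without it only Idi1 was called (adjusted p = 0.0218). The count was also 1 without ntc replicate 1, 2 or 4 or Mitf ASO replicate 1, and 2 without Mitf ASO replicate 3 or 4.

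The other regulators did not pass under the Mitf ASO: Srebf1 (0.02), Scap (-0.02), Insig1 (0.10) and Insig2 (-0.13) had small log2 fold changes. The Tfeb ASO gave 0 calls by edgeR (0.778% of all genes), with 2 members at an unadjusted p under 0.05 (14.4%) and 1, lower, by DESeq2. The Tfe3 ASO also gave 0 (2.16% of all genes), with 2 at an unadjusted p under 0.05 (16.6%) and 0 by DESeq2. The ASO arms share their ntc libraries, so direct contrasts are given as well.

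Between the Mitf and Tfeb ASOs, Idi1 (0.64 ± 0.13, adjusted p = 0.0115) and Stard4 (0.62 ± 0.16, adjusted p = 0.0393) were higher under the Mitf ASO, 2 of 28 against 1.67% of all genes (edgeR), and none was lower (1.86%). Stard4 was at 6.11, 6.63, 5.48 and 5.38 CPM under the Mitf ASO and at 4.15, 3.60, 3.11 and 4.46 under the Tfeb ASO, with no overlap. The count was 0 without Tfeb ASO replicate 2 or 3, and 1 without Tfeb ASO replicate 1 or any of the Mitf ASO libraries. Between the Mitf and Tfe3 ASOs edgeR called 0 (3.76% of all genes), with 9 at an unadjusted p under 0.05 (15.8%) and 1 by DESeq2. Between the Tfeb and Tfe3 ASOs it called 0 (1.62%), with 3 at an unadjusted p under 0.05 (18.8%) and 1 by DESeq2.

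**Figure D4:**
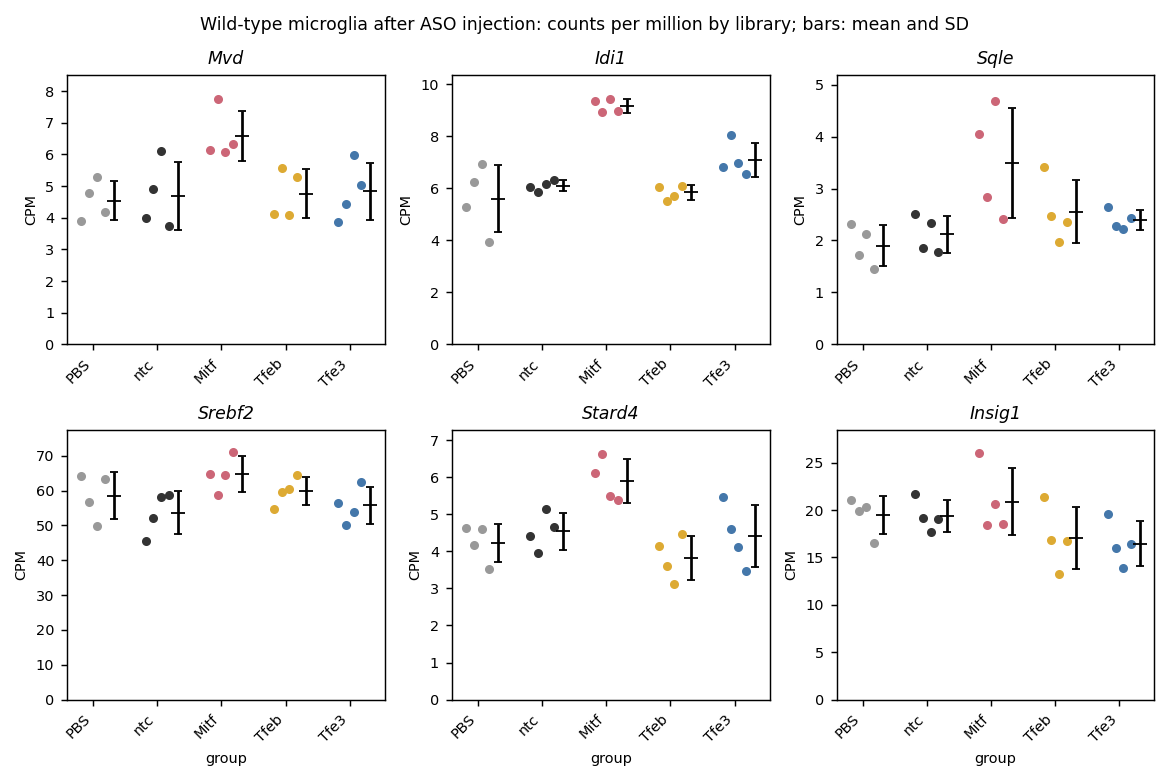
CPM per library for 6 genes in WT mice under PBS, ntc and the Mitf, Tfeb and Tfe3 ASOs (4 libraries each), with mean and SD. The Mitf ASO libraries of Idi1 lie between 8.93 and 9.43 CPM, above all the others.

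In SgshKO mice, the ASOs against Mitf and Tfe3 lowered 3 members and raised none, against 4.50% of all genes called lower and 4.84% higher. The median of the members was -0.04 (all genes 0.00), 21 were below 0 and 7 had an unadjusted p under 0.05 (25.3% of all genes). No member had ntc and combination libraries that did not overlap, which held for 1.06% of all genes. These are SgshKO animals in both arms, so the comparison does not measure a distance to WT.

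Dhcr7 was at 61.9 to 77.0 CPM under ntc (median 65.7) and at 48.5 to 62.5 under the combination (median 53.9, n = 8 each). The groups overlapped only between 61.9 and 62.5 CPM, and the gene fell by 0.30 on the log2 scale (SE 0.05, adjusted p = 0.000734, edgeR). The difference was -0.30 within grp 1 (adjusted p = 0.079) and -0.30 within grp 2 (adjusted p = 0.0111). In grp 1 the ntc libraries (65.2 to 77.0 CPM) and combination libraries (50.4 to 62.5 CPM) were separate. They were separate in grp 2 too (61.9 to 66.2 and 48.5 to 54.0 CPM).

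Insig1 was at 20.1 to 36.0 CPM under ntc (median 28.2) and at 18.2 to 25.7 under the combination (median 21.2). It fell by 0.39 on the log2 scale (SE 0.08, adjusted p = 0.00733, edgeR). Within grp 1 the difference was -0.41 (adjusted p = 0.0684) and within grp 2 it was -0.37 (adjusted p = 0.109), close in size though neither passed with 4 libraries an arm.

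Msmo1 was at 44.2 to 61.7 CPM under ntc (median 48.7) and at 37.3 to 46.5 under the combination (median 42.3), and it fell by 0.24 on the log2 scale (SE 0.07, adjusted p = 0.0333, edgeR). The difference was -0.39 within grp 1 (adjusted p = 0.0522) and -0.10 within grp 2 (adjusted p = 0.472), and the gap between the grps was not tested. In grp 1 the ntc libraries (50.5 to 61.7 CPM) and combination libraries (37.3 to 45.4 CPM) were separate, while in grp 2 they overlapped. The call was lost without grp in the fit (adjusted p = 0.0665) and with the replicate block (adjusted p = 0.0544).

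Next in order came Hsd17b7 and Sc5d, which did not pass. Hsd17b7 was at 9.84 to 14.4 CPM under ntc (median 11.7) and at 6.92 to 12.1 under the combination (median 9.48), a log2 fold change of -0.35 ± 0.12 (adjusted p = 0.0739, edgeR). Sc5d was at 28.3 to 33.0 CPM (median 30.2) and at 22.4 to 30.5 (median 28.6), a log2 fold change of -0.16 ± 0.06 (adjusted p = 0.111, edgeR).

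The SREBP genes themselves did not pass the test between the arms. Srebf2 was at 79.7 to 107 CPM under ntc (median 89.0) and at 76.2 to 90.8 under the combination (median 85.9), a difference of -0.06 ± 0.05 (adjusted p = 0.487, edgeR). In grp 2 its ntc libraries (92.2 to 107 CPM) all lay above the combination libraries (76.2 to 90.8 CPM). In grp 1 they overlapped (79.7 to 85.7 and 80.9 to 89.3 CPM), and the gap between the grps was not tested. Srebf1 was at 73.9 to 85.0 CPM (median 82.0) and at 70.7 to 82.5 (median 77.8), a difference of -0.04 ± 0.04 (adjusted p = 0.571, edgeR). Insig2 (0.00 ± 0.05, adjusted p = 0.973, edgeR) did not pass either. Dhcr7, Insig1 and Msmo1 were higher in SgshKO than in WT at all 3 ages and lower here, but the age and ASO sets were scaled separately, so their levels are not compared across them.

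**Figure D5:**
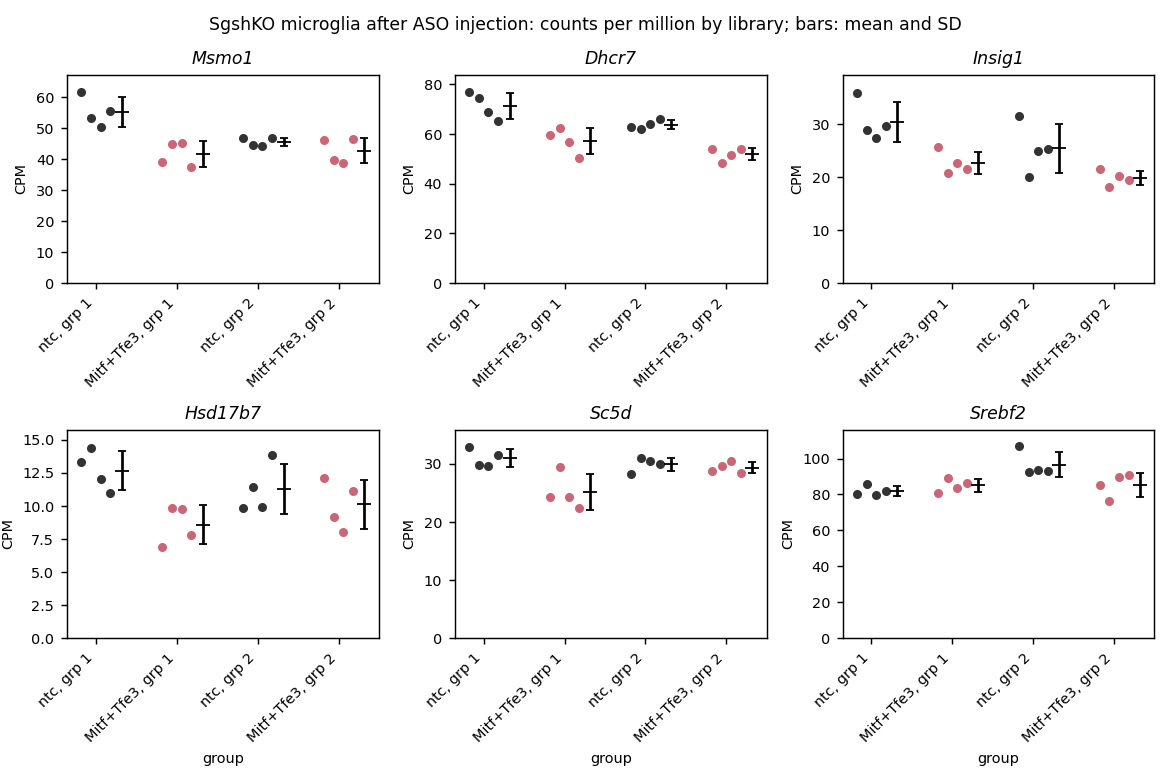
CPM per library for 6 genes in SgshKO mice under ntc or the Mitf and Tfe3 ASOs, split by grp 1 and grp 2 (4 libraries each), with mean and SD. Dhcr7 is lower under the combination and separated in both, and Msmo1 is separated only in grp 1. Srebf2 is separated only in grp 2 and overlaps when grps are pooled.

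Neighbouring pathways gave a mixed picture at 8 months, with the 2 genes of smallest adjusted p in each list leading it and the other called genes named after their values were seen. The counts below stand against 21.6% of all genes called higher and 18.9% lower at this age, and nothing particular to a list is read from them. Of 12 fatty acid synthesis genes, mostly SREBP-1 targets, 4 were higher and 2 lower in SgshKO. Acly (0.46 ± 0.07), which makes cytosolic acetyl-CoA, and Fads1 (-0.40 ± 0.08), a desaturase, led the list, with Acaca (0.90), Scd1 (2.10), Scd2 (0.39) and Gpam (-0.36) after them. Of 10 isoprenoid branch genes, 2 were higher and 1 lower: Dhdds (0.33 ± 0.09), Fntb (0.50) and Pggt1b (-0.34 ± 0.11).

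Of 9 LXR, efflux and oxysterol genes, 3 were higher and 2 lower in SgshKO. Soat1, which esterifies cholesterol for storage, was at 113 ± 13 CPM in WT and 241 ± 28 in SgshKO (1.09 ± 0.09, adjusted p = 3.21e-10, edgeR). Ch25h, cholesterol 25-hydroxylase, was at 0.33 ± 0.49 CPM in WT and 6.90 ± 2.6 in SgshKO (adjusted p = 7.13e-06, edgeR). The sterol exporters split, with Abca1 higher (0.43) and Abcg1 lower (-0.48), and Cyp27a1 was lower (-0.31). Of 7 genes that move sterol between membranes, 3 were higher and 3 lower. Npc2, which hands cholesterol out of the lysosome, changed by 1.66 ± 0.08, Lipa, the lysosomal lipase that frees it from esters, by 0.97 ± 0.06, and Gramd1b by 1.5. Stard3 (-0.46), Gramd1a (-0.30) and Osbp (-0.19) were lower.

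Under the Mitf and Tfe3 ASOs in SgshKO mice, 2 genes of these lists were called higher and 2 lower, of 11 fatty acid, 9 isoprenoid, 7 LXR and 6 sterol transfer genes tested, against 4.84% and 4.50% of all genes. Soat1 (-0.35 ± 0.05, adjusted p = 0.000307) and Lipa (-0.34 ± 0.05, adjusted p = 0.00073) fell, and Npc2 (0.19 ± 0.04, adjusted p = 0.00395) and Fasn, fatty acid synthase (0.26 ± 0.07, adjusted p = 0.0334), rose (edgeR). The 2 leading genes of the isoprenoid list (Pggt1b 0.13 and Rabggtb -0.16) did not pass, and Acly (0.08) and Nr1h2 (0.09) did not either. Under the Mitf ASO in WT mice, Npc2 (0.72) was higher than under ntc, and Abca1 (-0.22) and Abcg1 (-0.19) were lower, of 8, 9, 7 and 6 genes tested in the same lists, against 5.77% of all genes higher and 5.21% lower.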

How the data were processed

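PolyA RNA-seq of sorted microglia was taken from 58 libraries in 13 groups, assigned by their labels. The authors deposited raw counts per gene for 3 sets (age series, WT ASO, SgshKO ASO), TPM for the age series, and for the ASO sets a normalised, batch-corrected signal whose method is not given in the sources used here. The submitters' processing notes name STAR 2.5.3a, kallisto 0.44.0, HOMER 4.11, DESeq2 1.36.0, R 4.2.3 and the build mm10, with no role or order, and the strand setting of the counting is not given in the sources used here. The deposited TPM columns sum to 546451 to 570026. Libraries were single-end and marked strand with dUTP, per the labels' protocols, which name 2 RNA kits and 2 sequencers without saying which library used which.

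From the counts, genes with low counts were removed (filterByExpr, minimum count 10, age series). All genes of the ASO tables were tested. Differences were fitted with edgeR 4.0.16 in R 4.3.3 (TMM, quasi-likelihood F test), with all groups of a set in a single fit. The threshold was a Benjamini-Hochberg adjusted p of 0.05 over all genes. Errors of log2 fold changes are SEs derived from the F statistic. Age fits held group only, and ASO fits also the number labelled grp. In the WT ASO set same-numbered libraries deviated together (correlation 0.122 to 0.640), so this number pairs them and acts as the replicate block. The grp of PBS replicate 4 was taken from its title. Alternatives were DESeq2 1.42.0, limma 3.58.1 on log2(TPM + 1) or log2(TPM + 0.1) and on the deposited signal, other scalings and filters, and leaving out each library. The method was tested on simulated data.

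The members and gene lists were chosen with earlier results of these data known. Named with values were every member past the threshold, the 8 members with the smallest adjusted p at 8 months, the 5 with the smallest in the SgshKO ASO set, Srebf1, Srebf2, Scap, Insig1 and Insig2 always, and the 2 genes of smallest adjusted p per neighbouring list. The list of sterol-regulated degradation genes is not reported here. Promoter sequences are from RefSeq, GRCm38.p6, and Sqle, Fdps, Fdft1 and Stard4 have no entry there.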

Additional observations from a re-analysis of the deposited data

Results flagged for a closer look

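In 170 tests of single groups of 4 to 10 libraries for 17 members, 8 values stood far from the rest of their group (Dixon's gap test at the 95% level, where chance marks about 1 group in 20). All values are CPM. Srebf2 was lowest in SgshKO 8-month replicate 2, at 67.7 against 99.1 to 115 in the other 6. Hsd17b7 was lowest in SgshKO 3-week replicate 2, at 5.99 against 8.18 to 8.52, and highest in WT ntc replicate 1, at 8.02 against 3.90 to 4.07. Idi1 was at 0.189 in WT 8-month replicate 3 and at 0 in the other 3. Under the Mitf ASO in WT mice, Dhcr7 was highest in replicate 1, at 67.6 against 50.7 to 53.5, and Mvd in replicate 2, at 7.76 against 6.08 to 6.33. In SgshKO mice, replicate 3 of grp 1 under the Mitf and Tfe3 ASOs was highest for both Fdft1, at 17.8 against 10.8 to 13.8, and Fdps, at 15 against 9.37 to 11.9.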

How the results depend on the processing

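No called member changed direction under any alternative run. Counts of members called are given here where they moved by over 1.5 times. DESeq2 called 10 at 3 weeks (5 by edgeR), 2 for the 8-month minus 3-week genotype difference (0), and 1 each for Tfeb against ntc, Mitf against Tfe3 and Tfeb against Tfe3 (0 each). No share of all genes is given here for the DESeq2 counts, in this section or above. For that genotype difference, no filter on low counts gave 1 and the replicate block gave 1. For WT at 8 months against 3 weeks (4), TPM gave 1 with a pseudocount of 1 and 2 with 0.1, and the Ddx3y minus Xist covariate gave 0. For SgshKO over the same ages (7), the replicate block gave 3. Without the replicate block, Mitf against ntc gave 1 (4) and Mitf against Tfeb 1 (2). The batch-corrected signal gave 1 for Mitf against Tfe3 (0) and 1 for Mitf against Tfeb (2), and taking grp from the column name of PBS replicate 4 gave 1 for Mitf against Tfe3 (0). In SgshKO ASO mice (3), grp 1 alone gave 0 and grp 2 alone 1.

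Leaving out 1 library at a time gave 5 to 6 calls at 3 weeks, 5 to 10 at 4 months and 16 to 18 at 8 months. It gave 0 to 1 for the 8-month minus 3-week genotype difference, 1 to 3 within WT and 4 to 9 within SgshKO over those ages. In the ASO sets it gave 1 to 5 for Mitf against ntc, 0 to 1 for Tfeb against ntc, 0 to 2 for Mitf against Tfeb, 0 to 1 for Tfeb against Tfe3 and 2 to 4 for the SgshKO combination. The cause of these moves was not tested. Same-numbered libraries did not deviate together in the age series (correlation -0.171 to 0.115). The block is only an alternative there, with 5, 13 and 16 members called at the 3 ages. In the SgshKO ASO set the correlations (0.084 to 0.612) were all above 0 and close to those of the WT ASO set (0.122 to 0.640). The main fit of the SgshKO ASO set nevertheless held grp without this block. With the block, 2 members were called under the combination.

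On TPM with a pseudocount of 1, all genes split 605 higher to 773 lower at 3 weeks (760 to 532 by counts). With 0.1 they split 1263 to 1927 at 4 months (1469 to 1325). Few counts limit Idi1, Stard4 and Sqle in the age series, and 2 libraries a group limit the 4-month values.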
